A study of Mus musculus with 5 samples.

Results

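The cytosolic ribosomal protein genes encode the proteins of the ribosome that works in the cytoplasm. They were taken from the deposited expression table by name, as every row whose name starts with Rpl or Rps and a digit, or with Rplp and a digit, leaving out the S6 kinases (Rps6k) and names that mark a pseudogene (-ps). The rule found 83 of 15093 genes. Of these, 46 encode proteins of the large (60S) subunit and 30 encode proteins of the small (40S) subunit, and these 76 are called core members here. The other 7 are Rpl3l, Rpl7l1, Rpl22l1, Rpl36al, Rps4y2 and Rps27l, which resemble a core member, and Rps19bp1, which encodes a protein that binds Rps19 and is not itself a ribosomal protein.

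A cytosolic ribosome holds a single copy of most of these proteins, together with ribosomal RNA, and cells make them in matched amounts. Many of their mRNAs start with a C followed by a run of pyrimidines, the 5′ terminal oligopyrimidine (TOP) tract, through which the kinase mTOR and the RNA-binding protein Larp1 control how strongly they are translated. In neurons, translation is needed for long-lasting memory, and ribosomal protein mRNAs are also found in dendrites and axons.

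The study asked which ribosome-bound mRNAs of Drd2-expressing neurons of the central amygdala (CeA) change after fear learning. All groups were adult Drd2-TRAP mice, made by crossing a Drd2-Cre line with a Rosa26 line in which Cre switches on Rpl10a fused to EGFP, so that ribosomes of Drd2 neurons can be pulled down through the tag (translating ribosome affinity purification, TRAP). There were 3 fear conditioned libraries (replicates 2, 3 and 4, here FC2, FC3 and FC4) and 2 home cage libraries (replicates 6 and 7, here HC6 and HC7), each from bilateral CeA punches pooled from 3 mice and collected at 2 h. By the labels the controls stayed in the home cage and brains were taken after extinction, whereas the paper's results describe controls that heard the tone without shock and a collection after conditioning. In such a pool, fewer cells of a type and less RNA per cell cannot be told apart, and the labels do not say that the pools were made on separate days or in separate preparations.

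Values are counts per 1000000 reads (CPM) as scaled by the authors, and 19605318 to 27937520 reads on genes stood behind each library. The libraries of a group differed by far more than read sampling (chi-square per degree of freedom of 35.1 or more for every pair of libraries). The fear conditioned libraries correlated at 0.976 to 0.984 with each other on the log2 scale over the 13560 genes tested, and the home cage libraries at 0.746. HC7 stood apart, with 2681 genes at 0 against 976 in HC6 and 159 to 349 in the fear conditioned libraries. All 12 markers of Drd2 projection neurons that the table lists were detected in every library, with summed levels of 24236 to 27336 CPM after fear conditioning and 9343 and 16015 CPM in HC6 and HC7. The 11 choroid plexus markers summed to 113 to 186 CPM after fear conditioning, with 1 to 3 of them at 0, and to 2252 and 1954 CPM in HC6 and HC7, with 0 and 2 at 0.

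To show pyrimidine runs near the start of the members described below, 30 bases of the sense strand around the annotated start of the gene are printed for 12 of them, 5′ to 3′, with the run in capitals. The sequences and positions are those of RefSeq, build GRCm38.p6, and each window lies across or beside the transcription start site, in the promoter and the first exon. A run was taken as C followed by at least 6 further C or T within a search window of 25 bases on either side of the start, on the sense strand, and capitals end where that window ends, as in Rpl10a, where C and T go on beyond it. By this annotation the runs of Rpl4, Rpl5 and Rps27l end before the start and those of Rpl10a and Rpl22l1 begin after it, while those of Rps6, Rpl14, Rps18, Rps21, Rplp2 and Rps27 lie across it, where a TOP tract would be. Rpl4, Rps6, Rpl14 and Rpl5 are shown because they were lower in HC7 than in HC6, Rps18, Rps21, Rplp2 and Rps27 because they were higher there, Rpl10a because it carries the tag, and Rps27l, Rpl22l1 and Rpl7l1 because they are close relatives of core members.
Rpl4 (chr9:64173361-64173390, plus strand): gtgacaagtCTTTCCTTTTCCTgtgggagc
Rps6 (chr4:86857349-86857378, minus strand): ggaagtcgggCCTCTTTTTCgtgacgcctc
Rpl14 (chr9:120571501-120571530, plus strand): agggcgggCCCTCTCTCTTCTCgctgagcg
Rpl5 (chr5:107900497-107900526, plus strand): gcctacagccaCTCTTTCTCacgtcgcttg
Rps18 (chr17:33955648-33955677, minus strand): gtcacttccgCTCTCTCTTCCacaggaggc
Rps21 (chr2:180257365-180257394, plus strand): accgaggacccgCCCTCCTgcccaatagtg
Rplp2 (chr7:141447636-141447665, plus strand): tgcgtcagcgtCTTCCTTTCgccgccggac
Rps27 (chr3:90213632-90213661, minus strand): ttccgctttcgCTCCTTTCCggcggtgacg
Rpl10a (chr17:28328571-28328600, plus strand): aaagcgctctgCCTTCTTTccggtttccgc
Rps27l (chr9:66946063-66946092, plus strand): actcctctccaCTCCTCCCCgccgcctcta
Rpl22l1 (chr3:28805500-28805529, plus strand): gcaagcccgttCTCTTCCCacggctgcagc
Rpl7l1 (chr17:46782642-46782671, minus strand): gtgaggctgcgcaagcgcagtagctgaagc

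Of the 62 members with an entry in that promoter table, 35 (56.5%) had such a run, against 25.6% of all 27025 genes in the table. A run lay across the start itself in 19 of the 62 (30.6%), against 5.03% of all genes. Among core members it was 33 of 56 (58.9%), and among the others 2 of 6, with Rps27l and Rpl22l1 holding a run and Rpl7l1 none. The longest run had 20 bases. A match describes the letters near the annotated start, which need not be the start used in these neurons. The medians of tested members with and without a run were close. The median difference between HC7 and HC6 was 0.88 (log2, n = 35) with a run and 0.90 (n = 26) without, and the median between FC3 and FC2 was -0.59 in both sets.

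The ribosomal protein genes were among the more abundant mRNAs in the pull-down libraries. The median member had 145 CPM (mean over the 5 libraries), against 18.8 CPM for the median of all 15093 genes. The 83 members together made up 1.76%, 1.16% and 1.53% of all CPM in FC2, FC3 and FC4, and 1.34% and 1.97% in HC6 and HC7. Their levels summed to 17595, 12041 and 15184 CPM for FC2, FC3 and FC4, and to 12517 and 20360 CPM for HC6 and HC7. The home cage libraries thus held the highest sum and a sum near the lowest, and the fear conditioned libraries lay between or just below them. The group means were 14940 CPM ± 2785 (SD, n = 3) and 16439 CPM ± 5546 (SD, n = 2), and the mean log2 sums differed by -0.11, with all 3 fear conditioned sums below HC7 and FC3 below HC6 as well.

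**Figure D1:**
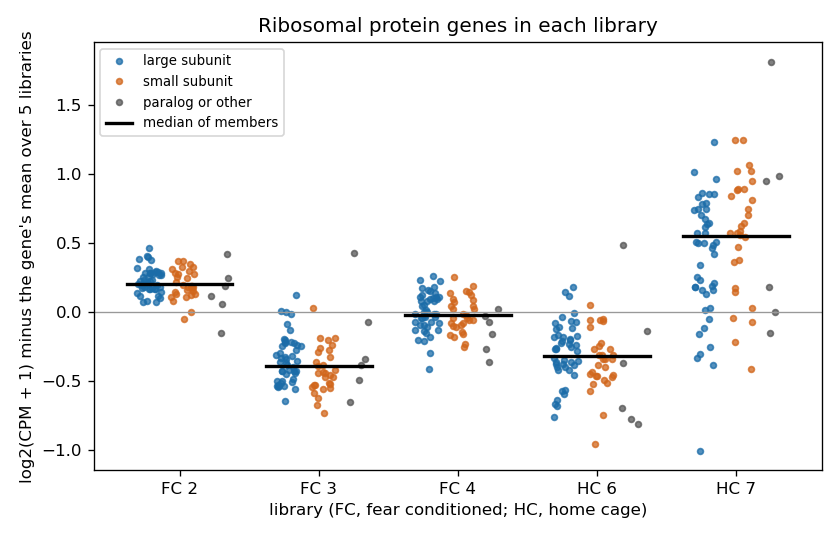
Each point is 1 of the 82 members tested, plotted as its log2(CPM + 1) minus its own mean over the 5 libraries (y axis) in each library (x axis; FC, fear conditioned; HC, home cage), colored by subunit, with a bar at the median of the members. The median is highest in HC7 and lowest in FC3, and the members of HC7 are the most widely scattered.

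Both subunits followed this order. The large subunit genes summed to 10528, 7254 and 9142 CPM in FC2, FC3 and FC4 and to 7665 and 11045 CPM in HC6 and HC7, and the small subunit genes to 6593, 4407 and 5658 CPM and to 4519 and 8614 CPM. The large subunit sum was 1.60, 1.65 and 1.62 times the small subunit sum in the fear conditioned libraries, 1.70 times in HC6 and 1.28 times in HC7. The proportion of the subunits was therefore close in 4 libraries and lower in HC7, with no replicate of that library to set it against.

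Per kilobase of the gene length in the table, Rps27, Rpl32 and Rplp1 were the most abundant members, at 606, 605 and 554 CPM per kb. Rps27 is a zinc-finger protein of the small subunit, and Rplp1 is a protein of the acidic stalk that recruits translation factors. Rpl3l, Rpl23a and Rps15a were the least abundant, at 0.615, 3.33 and 9.28 CPM per kb. The last value rests on a listed length of 9620 bases for Rps15a, which is long for this family, and Rpl24 likewise carries a length of 6107 bases and an identifier that the gene table pairs with Zbtb11. Rpl23a, at 2.58 to 3.60 CPM in every library, has near-identical copies in the genome that could share its reads, so its level is uncertain.

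No ribosomal protein gene was called different between fear conditioned and home cage mice. A call asked for a log2 fold change over 0.5 in either direction with a limma adjusted p under 0.05 (Benjamini-Hochberg over all genes tested). Of 82 members tested, 0 passed, but the same held for the whole table, where 0 of 13560 genes passed (0%). At an unadjusted p under 0.05, 0 of 82 members passed, against 16.8% of all genes (9.49% higher and 7.32% lower in the fear conditioned libraries). By edgeR's quasi-likelihood test and by limma voom on recovered reads, no member was called, and DESeq2 called a single member, Rpl3l, where it called 7.47% of all genes. The adjusted p of members ran from 0.387 to 0.999 by limma, and the smallest of all genes was 0.197.

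The 82 log2 fold changes (fear conditioned over home cage, on log2(CPM + 1)) lay between -0.84 for Rps27l and 0.68 for Rpl3. Their median was -0.19 (quartiles -0.32 and 0.06), against 0.08 for all genes, with 27 above 0 and 55 below. The standard error had a median of 0.35, and the 95% interval a median half-width of 0.84. Of the 82 intervals, 71 reached above 0.5, 66 reached below -0.5 and 0 lay wholly within 0.5 of 0 on either side. At this spread, a change as large as the threshold lay inside the interval of most members.

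**Figure D2:**
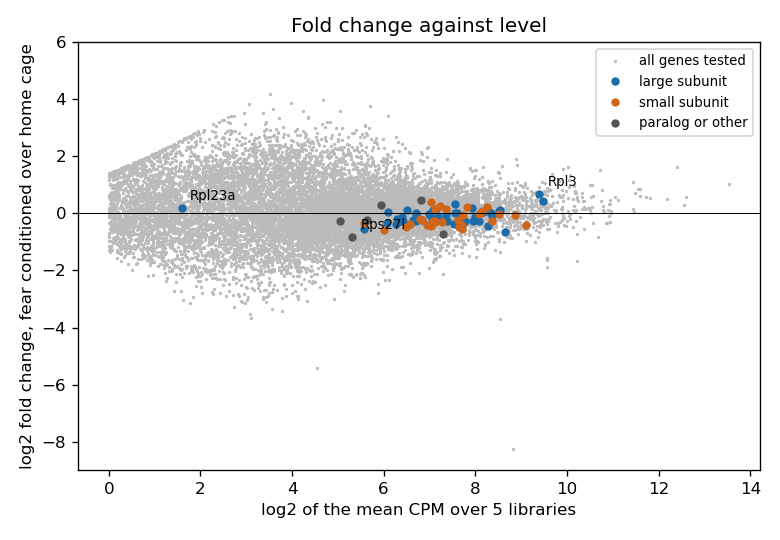
Log2 fold change of fear conditioned over home cage libraries (y axis) against the log2 of the mean CPM (x axis), for all 13560 genes tested (grey) and for large subunit, small subunit and other members (colors). The members lie between -0.84 and 0.68, inside the range of all genes.

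Libraries of the groups seldom separated for a member. The 3 fear conditioned libraries all lay above both home cage libraries for 3 members, Rpl4, Rps6 and Rpl23a, and all below them for 1, Rps10. That is 4 of 82 members (4.88%), against 36.4% of all genes tested (20.2% above and 16.1% below). For Rpl23a the groups lay close, at 3.60, 2.96 and 3.13 CPM in FC2, FC3 and FC4 and 2.81 and 2.58 CPM in HC6 and HC7. These values rest on 49 to 84 reads, and the limma p was 0.723. For 24 members (29.3%) all fear conditioned libraries lay inside the range of HC6 and HC7, which was so for 33.5% of all genes.

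Rpl4, a large subunit protein that lines the exit tunnel, was at 851, 707 and 833 CPM in FC2, FC3 and FC4 and at 649 and 542 CPM in HC6 and HC7. All fear conditioned values lay above the home cage values, but the log2 fold change of 0.42 (SE 0.22) had a limma p of 0.105 and an adjusted p of 0.387. Rps6, the substrate of the S6 kinases whose phosphorylation is a common readout of neuronal activity and mTOR signalling, was at 156, 132 and 143 CPM and at 124 and 96.6 CPM. Its mRNA was higher in every fear conditioned library, with a log2 fold change of 0.39 (SE 0.23) and a limma adjusted p of 0.429. The table measures the mRNA of Rps6 and not its phosphorylation.

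Rpl3, which helps to form the peptidyl transferase center, was at 879, 694 and 744 CPM in FC2, FC3 and FC4, 721 CPM in HC6 and 317 CPM in HC7. Its log2 fold change of 0.68 (SE 0.37, limma adjusted p = 0.402) went with HC7, which lay below all other libraries, while HC6 lay among the fear conditioned ones. Rpl7l1, a relative of Rpl7, was at 123, 145 and 106 CPM and at 62.9 and 123 CPM, and Rpl6 at 244, 169 and 203 CPM and at 175 and 147 CPM. Both groups overlapped for each, with log2 fold changes of 0.49 and 0.34.

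On the other side, Rpl22l1, the relative of Rpl22 known to take its place in the ribosome, was at 152, 92.0 and 121 CPM in FC2, FC3 and FC4 and at 132 and 289 CPM in HC6 and HC7. The log2 fold change was -0.71 (SE 0.40, limma adjusted p = 0.409), with HC6 among the fear conditioned values and HC7 above all of them. Rps10 was at 60.2, 38.6 and 64.1 CPM and at 64.5 and 96.2 CPM, so its groups did not overlap but nearly touched at FC4 and HC6. Its log2 fold change was -0.56 (SE 0.34, limma adjusted p = 0.440). Rpl41, which encodes the smallest ribosomal protein, was at 407, 261 and 278 CPM and at 324 and 723 CPM, Rps18 at 205, 140 and 163 CPM and at 157 and 376 CPM, and Rps24 at 137, 84.3 and 123 CPM and at 122 and 189 CPM. In these 3 genes HC6 lay among the fear conditioned libraries and HC7 above them, with log2 fold changes of -0.65, -0.53 and -0.43.

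Rpl10a, whose tagged form was used for the pull-down, was at 72.9, 68.1 and 65.7 CPM in FC2, FC3 and FC4 and at 56.4 and 77.0 CPM in HC6 and HC7. It was the steadiest member among the fear conditioned libraries (SD of log2 CPM 0.076), and its log2 fold change was 0.06 (SE 0.26, 95% interval -0.57 to 0.69). It ranked 65th to 78th of 83 members by CPM in the 5 libraries, so the tagged gene was not among the abundant members. Reads of the transgene and of the endogenous gene cannot be told apart in the table.

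Rpl3l, the relative of Rpl3 that is best known from heart and skeletal muscle, was at 25, 67 and 18 reads in FC2, FC3 and FC4 (1.19, 2.79 and 0.89 CPM) and at 0 in HC6 and HC7. Genes at 0 were also more common in HC6 (976) and HC7 (2681) than in the fear conditioned libraries (159 to 349). With each home cage library set to a chosen floor of 3 reads, the Rpl3l mean was 12.6-fold higher in the fear conditioned libraries. Its mean over the 5 libraries was just under the filter of 1 CPM, so the limma fit left it out. It was the member that DESeq2 called and the only member with an unadjusted p under 0.05 by edgeR, by voom and by limma without the filter.

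Leaving out a home cage library changed these counts. Without HC6, 34 members were called (2 higher and 32 lower), but so were 60.5% of all genes, and the median log2 fold change of members was -0.59. Without HC7, a single member was called (Rpl7l1, higher), against 27.5% of all genes, and the median turned to 0.28. In both cases the lone home cage library is assumed to vary like the fear conditioned libraries. Without FC2, FC3 and FC4 in turn, the median was -0.31, 0.00 and -0.18.

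Within the fear conditioned group the members moved as a block. FC2 was above FC4 and FC4 above FC3 in 77 of 82 members (93.9%), an order found in 19.6% of all genes tested. The 5 exceptions were Rpl10a, Rpl35, Rpl7l1, Rplp0 and Rps10. The difference between FC3 and FC2 had a median of -0.60 (log2, SD over members 0.19), and 81 of 82 members were lower in FC3, against a median of 0.01 (SD 0.50) and 48.6% lower for all genes. FC4 was below FC2 by a median of 0.24 in the same sense (80 of 82 members lower), and FC4 above FC3 by 0.38. The members with the widest spread among these libraries were Rps28, at 52.1, 25.9 and 45.9 CPM in FC2, FC3 and FC4, Rpl37 and Rpl39, and those with the narrowest were Rpl10a, Rps6 and Rpl4.

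The ribosomal stalk shows the pattern and its exception. Rplp2, a stalk protein, was at 367, 242 and 296 CPM in FC2, FC3 and FC4 and at 180 and 557 CPM in HC6 and HC7. Rplp1, its partner, was at 282, 179 and 274 CPM and at 193 and 436 CPM. Rplp0, the stalk base to which they bind, was at 197, 160 and 211 CPM and at 179 and 190 CPM. The partners differed more than 2-fold between the home cage libraries, and the base differed by 0.09 on the log2 scale.

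HC7 was higher than HC6 for 72 of 82 members (87.8%), against 43.3% of all genes tested. The median difference was 0.86 on the log2 scale (1.81-fold, SD over members 0.66), where all genes had a median of -0.20. HC7 was the highest of the 5 libraries for 55 members (67.1%, against 31.9% of all genes) and the lowest for 7. The difference exceeded 1 on the log2 scale in 31 members, and its median was 0.75 in the large and 0.92 in the small subunit. There is no further home cage library to show which of the pair is usual.

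**Figure D3:**
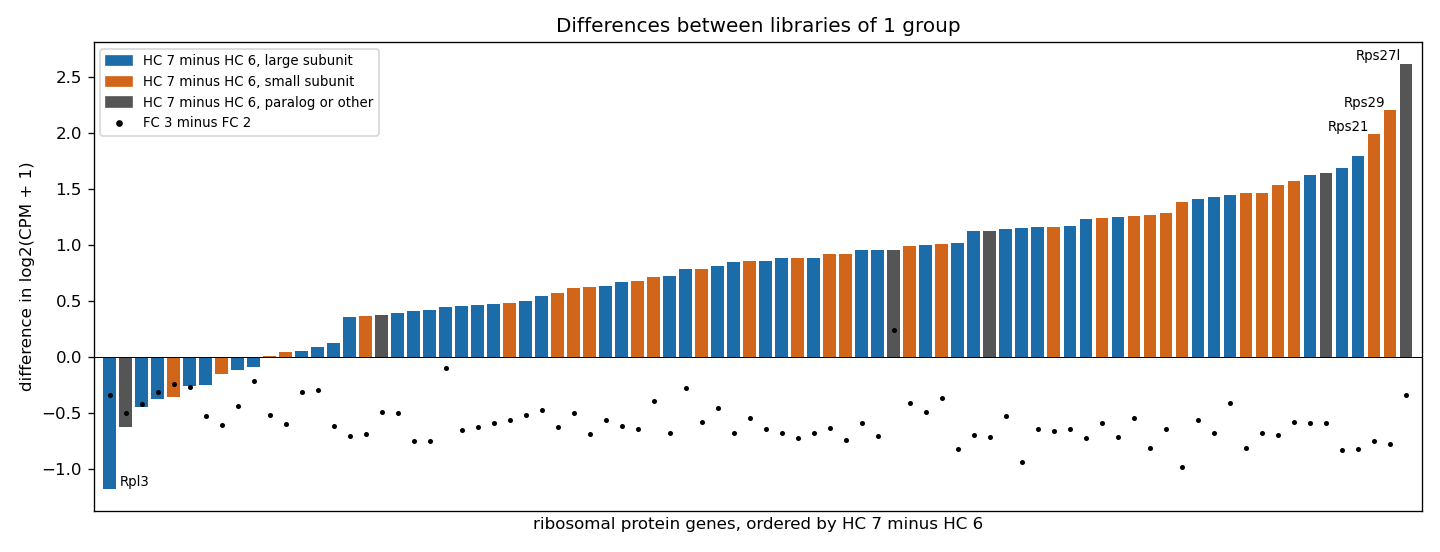
Difference in log2(CPM + 1) between libraries of the same group (y axis) for each of the 82 members tested (x axis, ordered by the home cage difference, with the outermost members named), with bars for HC7 minus HC6 colored by subunit and black points for FC3 minus FC2. The bars run from -1.18 for Rpl3 to 2.62 for Rps27l, while 81 of the 82 points lie below 0.

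The difference between HC7 and HC6 varied from member to member, within a spread over all genes (SD 1.81) that was also wider than that between FC3 and FC2. Rps21, a small subunit protein, went from 110 CPM in HC6 to 439 CPM in HC7 (4.00-fold), and Rps29 from 88.1 to 409 CPM (4.64-fold). Rps27l, the relative of Rps27 that p53 is known to induce, went from 17.0 to 109 CPM (6.44-fold), while the fear conditioned libraries held it at 27.3, 21.3 and 23.5 CPM. These were the members with the largest gaps.

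In the opposite direction, 10 members were lower in HC7, among them Rpl3, Rps4y2, Rpl14, Rpl5, Rps6 and Rpl4. Rpl3 was lower by 1.18 on the log2 scale. Rpl14 was at 406 CPM in HC6 and 297 CPM in HC7, and at 422, 315 and 418 CPM in FC2, FC3 and FC4. Rpl5, which with Rpl11 and the 5S RNA forms the particle that can bind Mdm2, was at 98.8 and 76.1 CPM in HC6 and HC7 and at 106, 85.5 and 90.9 CPM in the fear conditioned libraries. Rpl11 went the other way, at 121 and 166 CPM in HC6 and HC7, and at 154, 97.4 and 128 CPM in the fear conditioned libraries.

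As a result the order of members changed in HC7. Spearman's rho of the CPM over the 76 core members was 0.966 to 0.987 among the other 4 libraries and 0.773 to 0.854 between HC7 and each of them. These are correlations across genes, which share library and length and are not replicates. Rpl3 and Rpl4 were the 2 highest members in FC2, FC3, FC4 and HC6, whereas Rps3 (883 CPM), Rpl41 (723 CPM) and Rps14 (665 CPM) led in HC7. In the other libraries Rps3, at 525, 393, 493 and 443 CPM in FC2, FC3, FC4 and HC6, and Rps14, at 517, 400, 431 and 331 CPM, came below Rpl3 and Rpl4.

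The relatives of core members were compared with them within each library, as the log2 ratio of CPM per kb, so that the common shift of the library drops out. Rpl22l1 was above Rpl22 by 2.97 ± 0.16 (SD, n = 3) in the fear conditioned and 3.47 ± 0.23 (SD, n = 2) in the home cage libraries. Without length these means were 0.44 and 0.94, so most of the excess came from the listed lengths of 485 and 2801 bases. The difference between the groups was -0.50 with or without length. All 3 fear conditioned libraries (2.85 to 3.16 per kb) lay below HC6 and HC7 (3.63 and 3.30). The groups also did not overlap for 36.4% of single genes tested, and no such share was taken over ratios. The other 4 ratios overlapped between the groups. Rpl7l1 to Rpl7 was -1.61 ± 0.45 after fear conditioning, -2.54 in HC6 and -1.46 in HC7. Rpl36al to Rpl36a was -0.49 ± 0.07 and -0.61 ± 0.50, and Rps27l to Rps27 was -4.24 ± 0.25 and -3.81 ± 1.00. Without length the ratio of Rps27l to Rps27 was -2.84 and -2.41. For Rps4y2, whose identifier the gene table names Rps4l, the ratio to Rps4x was -1.82 ± 0.08 and -1.38 ± 0.80. With HC6 or HC7 left out, the difference between groups kept its sign for Rpl22l1 to Rpl22 (-0.33 and -0.66) and turned for the others. It was -0.15 without HC6 for Rpl7l1, -0.24 without HC6 for Rpl36al, 0.12 without HC6 for Rps4y2 and 0.28 without HC7 for Rps27l, against 0.39, 0.12, -0.45 and -0.43 with all libraries. With 3 against 2 libraries an exact permutation test cannot go below 0.1, and none was made for the ratios.

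Ribosomal proteins that the name rule leaves out lay in the same range. Rpsa, the laminin receptor homolog of the small subunit, was at 224, 145 and 244 CPM in FC2, FC3 and FC4 and at 211 and 153 CPM in HC6 and HC7, with a log2 fold change of 0.15. Gnb2l1 (Rack1), a scaffold on the small subunit, had a log2 fold change of -0.24 and Fau of -0.10. None of these reached an unadjusted p of 0.05 by limma. Rps27a, a member that is made as a fusion with ubiquitin, was at 192, 118 and 177 CPM and at 117 and 151 CPM.

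Among related gene groups, the respiratory chain moved between libraries in the same sense. Its 90 tested genes had a median log2 difference of 1.19 between HC7 and HC6 and of -0.42 between FC3 and FC2, with 45.6% in the order FC2 above FC4 above FC3, and their median fold change between groups was -0.01 (3 higher and 0 lower at an unadjusted p under 0.05, against 9.49% and 7.32% of all genes). The 75 mitochondrial ribosome genes had medians of 0.43 and -0.20, with a group median of 0.23 (10 of 75 higher and 0 lower). Ribosome biogenesis genes, which make and assemble the subunits in the nucleolus, did not share the shift, with medians of -0.30 and 0.03, and 12 of 74 were higher and 1 lower in the fear conditioned libraries at an unadjusted p under 0.05 (median 0.44). None of these genes passed the adjusted threshold. The group medians moved with the home cage library left out, to -0.62 without HC6 and 0.54 without HC7 for the respiratory chain, to 0.057 and 0.38 for the mitochondrial ribosome, and to 0.55 and 0.24 for ribosome biogenesis.

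Other mRNAs with a known TOP tract shared the shift within the fear conditioned group and not that between the home cage libraries. In 12 of the 24 genes FC2 was above FC4 and FC4 above FC3, and FC3 differed from FC2 by a median of -0.35, but the median difference between HC7 and HC6 was -0.03. Eef1a1, an elongation factor mRNA with a TOP tract, was at 1368, 1124 and 1566 CPM in FC2, FC3 and FC4, 1346 CPM in HC6 and 486 CPM in HC7. This gene did not follow the list, with FC4 the highest library and HC7 the lowest. Translation factors as a whole (64 genes) had medians of 0.01 and 0.08. The 22 kinases and TOP regulators tested (the mTOR pathway, Larp proteins and others) were lower in HC7 than in HC6 by a median of 0.73. This was the opposite direction to the members. Between the groups, 3 were higher and 1 lower at an unadjusted limma p under 0.05, against 9.49% and 7.32% of all genes. The proteasome, another large complex (46 genes), had a median of -0.11 between HC7 and HC6.

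**Figure D4:**
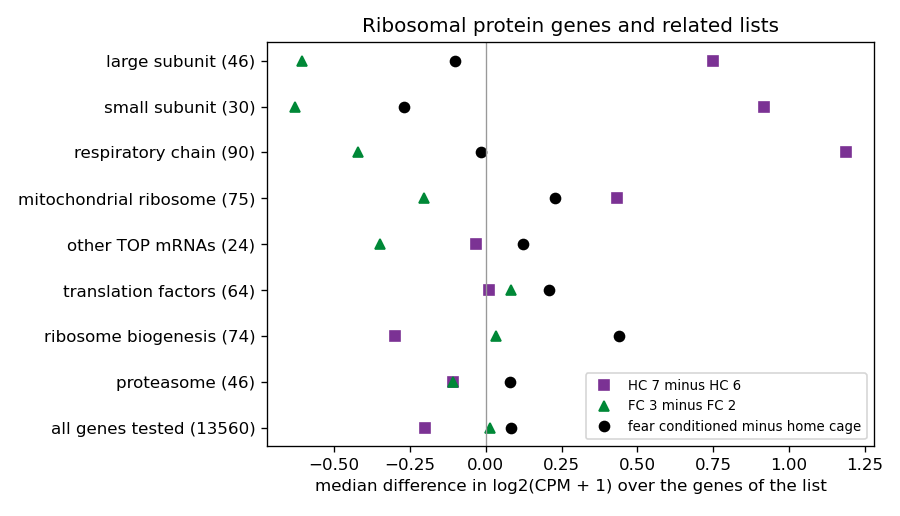
Median difference in log2(CPM + 1) (x axis) over the tested genes of the subunits and 6 related lists, and of all genes (y axis, number of genes in parentheses), with squares for HC7 minus HC6, triangles for FC3 minus FC2 and circles for fear conditioned minus home cage. Of the lists drawn, both ribosomal subunits (0.75 and 0.92) and the respiratory chain (1.19) have the highest squares.

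Gene length and the summed markers of some other cells moved with these library differences. The 1356 shortest genes (up to 1381 bases) had a median of 0.54 between HC7 and HC6 and of -0.32 between FC3 and FC2. The 1356 longest had medians of -0.13 and 0.16, and all 13551 genes with a length above 0 had -0.20 and 0.01. Of 82 members, 39 were among the shortest (median length of members 1391.5 bases). Over the members, log2 length had Pearson correlations of -0.22 and 0.28 with these 2 differences. Summed oligodendrocyte markers were 1997, 1374 and 2914 CPM in FC2, FC3 and FC4 and 3032 and 5626 CPM in HC6 and HC7, and astrocyte markers 1068, 901 and 1110 CPM and 2336 and 3013 CPM. Endothelial and mural markers were at 64.1, 22.9 and 58.7 CPM and at 122 and 271 CPM, and microglial markers at 148, 75.4 and 152 CPM and at 189 and 182 CPM. Each of these sums was lowest in FC3, like that of the ribosomal proteins, and all but the microglial sum were highest in HC7, but the single markers did not move together. HC7 was above HC6 for 8 of 14 oligodendrocyte, 3 of 10 astrocyte, 4 of 11 endothelial and mural and 4 of 11 microglial markers tested, with median log2 differences of 0.039, -0.78, -0.40 and -0.21, against 72 of 82 members. All 14 oligodendrocyte, 10 astrocyte and 11 microglial markers had reads in every library, and of 12 endothelial and mural markers 1 was at 0 in HC6 and 1 in HC7. Summed GABA interneuron markers, at 185, 103 and 142 CPM and at 261 and 279 CPM, had the same order within each group as the ribosomal proteins. Of the single markers, 12.5% had FC2 above FC4 above FC3, against 19.6% of all genes, and HC7 was above HC6 for 4 of 8. Pallial glutamatergic markers were at 240, 236 and 63.5 CPM and at 481 and 406 CPM, and Drd1 projection neuron markers at 241, 191 and 395 CPM and at 127 and 125 CPM. HC7 was above HC6 for 4 of 10 pallial and 2 of 7 Drd1 markers. It was above HC6 for all 12 Drd2 projection neuron markers, with a median log2 difference of 1.09. Between FC3 and FC2 the Drd2 markers had a median of 0.62, against -0.60 for the members. The part of length, of Drd2 neurons or of other cells in the ribosomal protein differences was not tested.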

How the data were processed

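TRAP-seq libraries of 3 fear conditioned and 2 home cage pools were grouped by their labels. The authors deposited 1 table with a normalized signal per gene and library, in CPM of an effective library size, and a gene length (9 lengths below 0 were not used). The labels' processing notes name the build mm8 and the tool DESeq. The aligner, the counter and any use of strand are not given in the sources used here. All values (100%) were whole multiples, within 0.01, of the value of 1 read, so reads were recovered (3 reads are 0.100 to 0.158 CPM). Intervals from these reads would cover counting error only.

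Groups were compared with limma 3.58.1 (lmFit, eBayes with trend) on log2(CPM + 1), two-sided, for the 13560 genes with a mean of at least 1 CPM, adjusted by Benjamini-Hochberg over all of them. The thresholds follow the study's methods. The design had left the unit open, and recovered reads were tested as alternatives with edgeR 4.0.16 (quasi-likelihood), DESeq2 1.42.0 and limma voom under R 4.3.3. Python 3.11.15 made counts and figures. The scripts were tested on simulated data with changes far above the fold threshold and the same spread in both groups. That simulation does not show how well changes near the threshold would be detected in these libraries. The replicates were pools of 3 mice, and p-values measure the spread between pools.

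The members and gene lists were chosen with earlier results of these data known. Named members are Rpl10a, the 5 with the smallest p in each direction, the 3 highest and 3 lowest per kb, members with a known role, paralog pairs, the 3 with the largest and smallest spread in the fear conditioned group, ribosome parts under other names, and members at 3 reads or fewer in a group. Rps29, Rps21, Rpl14, Rps4y2, Rpl35 and Eef1a1 were named after their values were seen. Other lists were marker genes, translation factors, the respiratory chain, the mitochondrial ribosome, the proteasome, ribosome biogenesis, TOP mRNAs and their regulators. All 83 identifiers were found in a gene table, which gives another symbol for 3 of them (Rpl24, Rps3a and Rps4y2). Promoter sequences came from a RefSeq table (GRCm38.p6), and no position was taken from another build. Rpl10l and Rpl39l were not analysed here, and the values of some genes are not reported here.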

Additional observations from a re-analysis of the deposited data

How the results depend on the processing

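At this depth 1 read stood for 0.0334 to 0.0527 CPM, and the comparison rests on 3 against 2 libraries. Under a pseudocount of 0.1, no filter, at least 1 CPM in every library, quantile, table-total or upper quartile scaling, and a separate spread for each group (array weights), 0 members were called. Members lay below the median of all genes by 0.17 to 0.36 on the log2 scale in these settings and in the count tests. Rpl3l alone gave 1 member higher at an unadjusted p under 0.05 without a filter, by edgeR with and without a filter, by DESeq2 and by voom, and 1 call by DESeq2. With quantile normalization, 0 members had every fear conditioned library above the home cage libraries and 0 below. Scaling to the table total also left 0 above, and upper quartile scaling 0 below. The counts of members in the order FC2 above FC4 above FC3 (71 to 79) and higher in HC7 (67 to 69) under these 3 scalings, tried after the data were seen, stayed near 77 and 72.

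Leaving out 1 library at a time, the number called ran from 0 to 34, those higher at an unadjusted p under 0.05 from 0 to 5 and lower from 0 to 39, those with all fear conditioned libraries above from 3 to 35 and below from 1 to 55, and the median from -0.59 to 0.28. The upper ends of these counts all came from the fits with a lone home cage library, where many of all genes were called as well. A lone library is also easier to separate from for any gene, and the all-gene share was not taken for the other counts. With a fear conditioned library left out instead, 0 members were called and 0 had an unadjusted p under 0.05. All fear conditioned libraries then lay above for 3 to 16 members and below for 1 to 4. The direction turned for Rpl10a without HC6 (range -0.16 to 0.28) and for Rps18 without HC7 (range -1.16 to 0.093). It turned for 4 of 5 paralog ratios as well, and the cause was not tested. No paired analysis was possible because the groups share no replicate numbers.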

Other observations

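Rows named as ribosomal protein pseudogenes (47 in the table) were left out of the members. They summed to 143, 89.6 and 134 CPM in FC2, FC3 and FC4 and to 103 and 261 CPM in HC6 and HC7, the order seen for the members. HC7 was above HC6 for 46 of the 47, and FC3 was the lowest fear conditioned library for 39. Such copies can share reads with their parent genes, and their part in the members' values was not tested.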
